A study of Mus musculus with 6 samples.

Results

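The collagen gene family was followed in adipocytes made from 3T3-L1 cells, a mouse embryonic fibroblast line that turns into fat cells when given a hormone cocktail. Members were all genes named Col, a number, the letter a and a number, which gave 44 of the 45706 genes in the deposited table. They comprised 11 fibrillar collagens, 6 basement membrane (type IV) chains, 6 beaded filament (type VI) chains, 3 network collagens, the anchoring fibril collagen Col7a1, 9 FACITs (fibril-associated collagens with interrupted triple helices), 2 multiplexins, 4 transmembrane collagens and 2 others (Col26a1 and Col28a1).

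RNA sequencing of total RNA compared 3 scrambled control samples (genotype label WT) with 3 RBMS1 knockdown samples (genotype label RBMS1KD). Both groups were 3T3-L1 cells transduced with a lentivirus, carrying a scrambled or an Rbms1 short hairpin RNA, selected with puromycin, differentiated with IBMX, insulin, dexamethasone and rosiglitazone, and harvested on day 7. RBMS1 is an RNA-binding protein, and the comparison asks how lowering it alters gene expression in the mature adipocyte. A knockdown lowers a transcript without removing the gene, and the labels do not say whether the replicates were separate transductions or cultures of 1 line, so the p-values measure only the spread between these samples. Values below are in CPM, counts scaled to the library size adjusted by the trimmed mean of M values (TMM) and given per 1e+06, and fold changes are knockdown over control on the log2 scale with their standard error (SE). The quasi-likelihood test of edgeR was run on all genes with enough counts, its p-values were adjusted by the Benjamini-Hochberg method, and a gene was called where the adjusted p was at most 0.1, the threshold of the study's Results. Its Methods state 0.05, and calls under 0.05 are counted beside it.

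Rbms1 itself was at 113, 102 and 99.6 CPM in the controls and at 49.2, 61.4 and 84.0 CPM in the knockdown samples. The groups did not overlap, but the log2 fold change of -0.69 (SE 0.20) did not pass the threshold (adjusted p = 0.185, edgeR). Libraries held 3142699 to 11073111 counts, and genes derived from ribosomal RNA took 43.0% of control replicate 2 against 8.12 to 17.8% of the others. A count of 3 corresponded to 0.220 to 1.49 CPM. The adipocyte label was met: adiponectin (Adipoq) was at 1056 to 2649 CPM, and all 10 listed adipocyte markers were tested. The summed level of those 10 markers was 21522 to 24633 CPM in the controls and 11702 to 20591 CPM in the knockdown samples. Most of that sum in the controls was lipoprotein lipase (Lpl), and without it the other 9 summed to 9247 to 10900 CPM against 6353 to 10382 CPM, which overlapped. The defining macrophage markers Adgre1, Ptprc and Tyrobp, the endothelial marker Kdr, the epithelial markers Cdh1 and Epcam and the chondrocyte markers Acan, Matn1 and Matn3 were at 0 in all 6 samples. Other members of those lists were not: Cd68 reached 3.27 CPM, Pecam1 1.99 CPM and Krt18 5.32 CPM, and Sox9 was at 17.7 to 38.3 CPM. In such bulk RNA, fewer cells of a type and less RNA per cell cannot be told apart.

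Collagens are secreted or membrane-bound proteins built from 3 chains wound into a triple helix, in which glycine recurs at a fixed spacing because only glycine has room at the core. Fibrillar types I, III and V make the fibres of the interstitial matrix, type IV makes the sheet of the basement membrane, and type VI makes beaded filaments around cells. Fat cells are each wrapped in a basement membrane, and the matrix is rebuilt as a fibroblast-like precursor becomes a lipid-filled cell. Multiplexins (types XV and XVIII) sit at basement membrane borders and carry interrupted collagen stretches with sugar chains, whereas transmembrane collagens such as type XXIII span the plasma membrane.

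The glycine repeat can be read in the coding sequence as a GGN codon at a spacing of 3 codons. The 30-codon stretches below were read from the spliced coding sequence on GRCm38 (GENCODE annotation), with coordinates that span the introns between the first and last base shown. They are shown because they set an unbroken fibrillar repeat beside the interrupted repeats of a type IV and a transmembrane chain described below. Capitals mark the GGN codons.

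Col1a1 (chr11:94945395-94945571, plus strand): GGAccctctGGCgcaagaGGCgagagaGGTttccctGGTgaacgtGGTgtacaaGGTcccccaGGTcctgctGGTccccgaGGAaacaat

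Col4a1 (chr8:11244525-11245228, minus strand): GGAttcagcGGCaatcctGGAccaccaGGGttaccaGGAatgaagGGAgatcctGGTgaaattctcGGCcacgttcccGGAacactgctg

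Col23a1 (chr11:51560016-51563044, plus strand): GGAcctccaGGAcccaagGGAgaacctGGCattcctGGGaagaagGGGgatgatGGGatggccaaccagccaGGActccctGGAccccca

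The Col1a1 stretch holds 10 GGN codons without a break, and those of Col4a1 and Col23a1 hold 9 each with the spacing broken. The stretches were cut to show this, Col1a1 from the middle of its longest run and Col4a1 and Col23a1 across the end of theirs. Inside those runs, of 40 and 43 triplets, Col4a1 and Col23a1 were unbroken as well. Over whole coding sequences, and counting runs of at least 5 triplets, the longest unbroken run was 216 to 344 triplets in the 11 fibrillar chains. It was 39 to 66 triplets in the 6 type IV chains and 30 triplets in both multiplexins. Runs covered 73.3% of the codons of Col1a1, 78.4% of Col4a1, 69.4% of Col23a1 and 25% of Col15a1. Col15a1 and Col23a1, which fell with RBMS1 knockdown, differed widely in how much of their chain is collagen repeat.

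Collagen transcripts were abundant in both groups. They made up 2.84, 2.66 and 2.53% of all counts outside ribosomal RNA genes in the controls and 1.92, 3.01 and 3.35% in the knockdown samples. The group means of 2.68 ± 0.158% and 2.76 ± 0.746% (SD, n = 3) differed by less than the spread between the knockdown samples. Knockdown replicate 1 was lowest of all, and it was also the lowest of the 6 samples for 8 of the 9 tested fibrillar chains and for 15 of all 24 tested collagens. Per length (CPM per kilobase of annotated exon), the summed collagen level was 2923, 2967 and 2634 in the controls and 1890, 2721 and 2928 in the knockdown samples.

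Of the 44 members, 24 had enough counts to be tested. In the controls, the highest mean level per length was that of Col4a1 (459 ± 56.1 CPM per kilobase), followed by Col1a1 (383 ± 104), Col6a1 (375 ± 43.0), Col3a1 (343 ± 31.9), Col4a2 (323 ± 27.7) and Col1a2 (247 ± 21.5; SD, n = 3). Each of the first 4 differed from the next in this order by less than 1 of the SDs of the pair, whereas Col1a2 lay below Col4a2 by more than both SDs. With the longest transcript as the length, the same 6 genes were on top in another order, led by Col3a1. These 6 chains carried 66.1 to 75.8% of the summed level in each sample. At the other end among tested members, Col8a1 was at 0.437 ± 0.468 and Col28a1 at 0.687 ± 0.0209 CPM per kilobase in the controls.

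**Figure D1:**
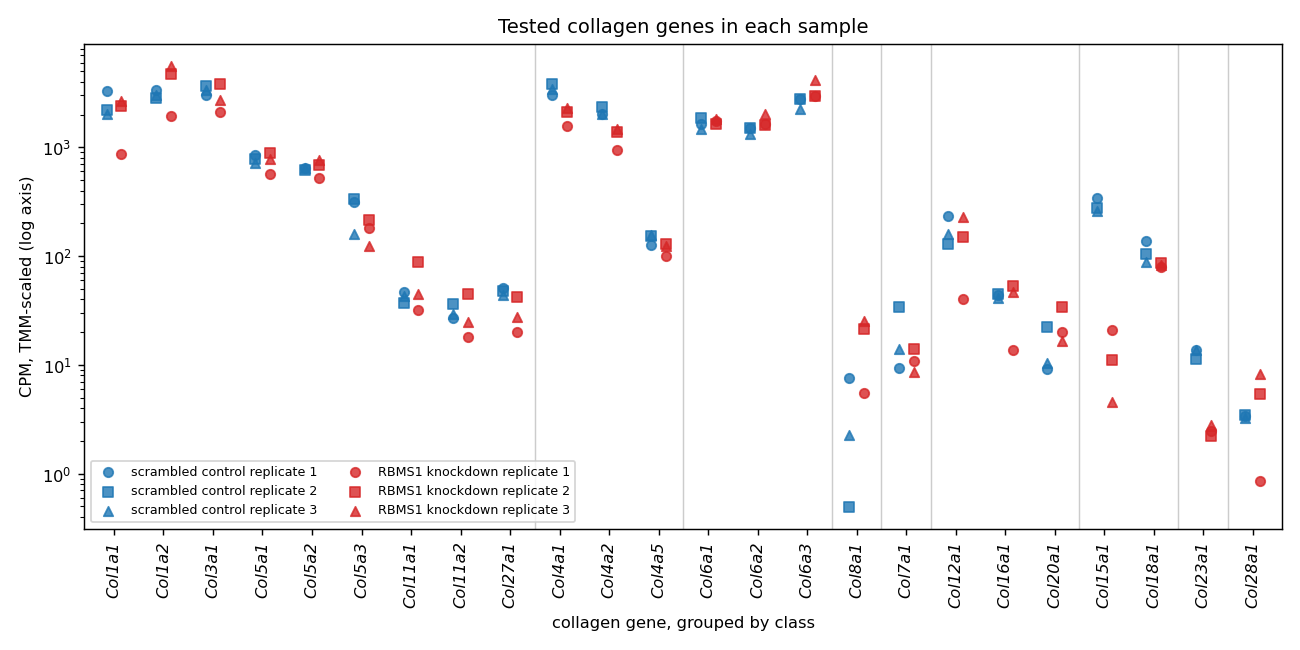
CPM (log axis) of the 24 tested collagen genes, grouped by class, in each of the 3 scrambled control (blue) and 3 RBMS1 knockdown (red) samples, with the replicate shown by the marker's shape. The control and knockdown points of Col15a1 and Col23a1 lie far apart, whereas those of most fibrillar and type VI chains lie close together or overlap.

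Of the summed level per length, type VI took 26.8, 28.0 and 26.0% in the controls and 44.4, 30.0 and 34.4% in the knockdown samples. Type IV took 25.0, 30.1 and 29.9% in the controls and 19.5, 18.8 and 18.7% in the knockdown samples. The groups did not overlap for either type, and the type IV mean went from 28.3 ± 2.87% to 19.0 ± 0.449% (SD, n = 3). With the longest transcript as the length, the means were 23.0 and 14.8% for type IV and 25.1 and 32.8% for type VI, again without overlap. Type I took 26.4, 19.0 and 21.0% against 15.3, 27.2 and 29.1%, which overlapped. Types III and V also overlapped, at 9.42 to 14.2% and 6.49 to 7.83% over the 6 samples. Type XV took 1.46 to 1.84% of the summed level in the controls and 0.0245 to 0.175% in the knockdown samples. These shares are given as values without a test, and the smallest p that an exact two-sided permutation test of 3 samples against 3 could give is 0.1. They are shares of a whole, so that a lower share of 1 type raises the others.

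**Figure D2:**
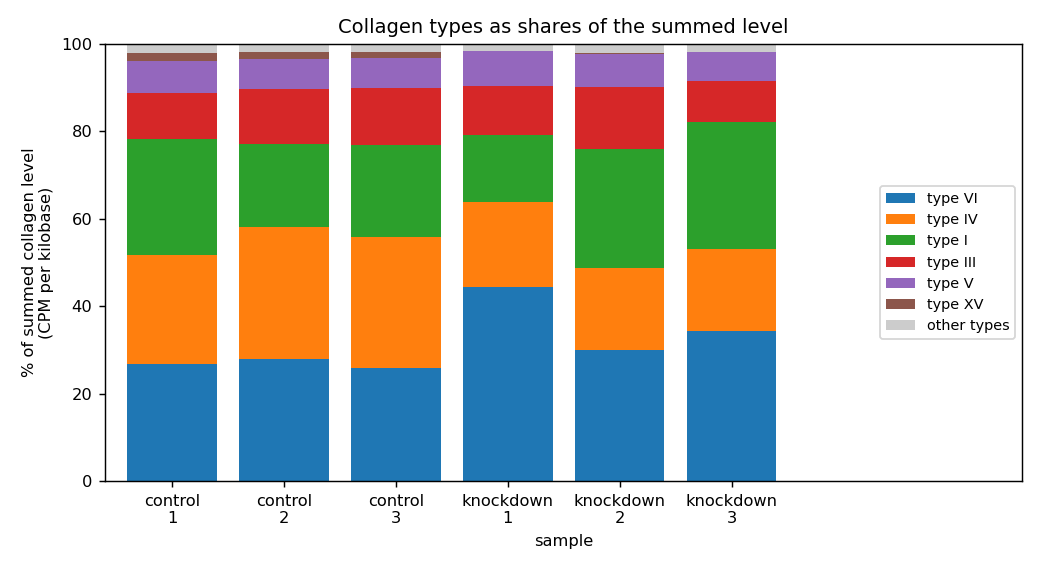
Share (%) of the summed collagen level (CPM per kilobase) taken by each collagen type in each sample, as stacked bars from 0 to 100%. The type IV segment is narrower in all 3 knockdown samples (18.7 to 19.5%) than in the controls (25.0 to 30.1%), and type VI is widest in knockdown replicate 1 (44.4%).

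The comparison called 2 of the 24 tested collagens, Col15a1 and Col23a1, both lower with RBMS1 knockdown and both at an adjusted p under 0.05 (edgeR). No collagen was called higher by edgeR or DESeq2, and 1 (Col8a1) was higher at an unadjusted p under 0.05 (edgeR). Over all 11440 tested genes, 0.909% were called lower and 0.315% higher, 1.22% in either direction, and 0.463% at an adjusted p under 0.05. At an unadjusted p under 0.05 there were 6 collagens (25.0%), beside 12.4% of all genes. The groups did not overlap for 6 collagens that were lower and 2 that were higher in the knockdown samples (33.3%), beside 18.5% of all genes in either direction and 9.55% in the lower direction. The median log2 fold change of the 24 was -0.21, and 15 of them (62.5%) were below 0, against a median of 0.00 and 49.6% below 0 over all genes. Without knockdown replicate 1 that median was 0.09, so 1 library set its sign. DESeq2 called 4 collagens lower, adding Col4a1 and Col4a2, and 3.20% of the genes it adjusted. Scaling by library size alone turned the calls over all genes from 104 lower and 36 higher to 42 lower and 84 higher, and Col15a1 and Col23a1 were still called lower.

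**Figure D3:**
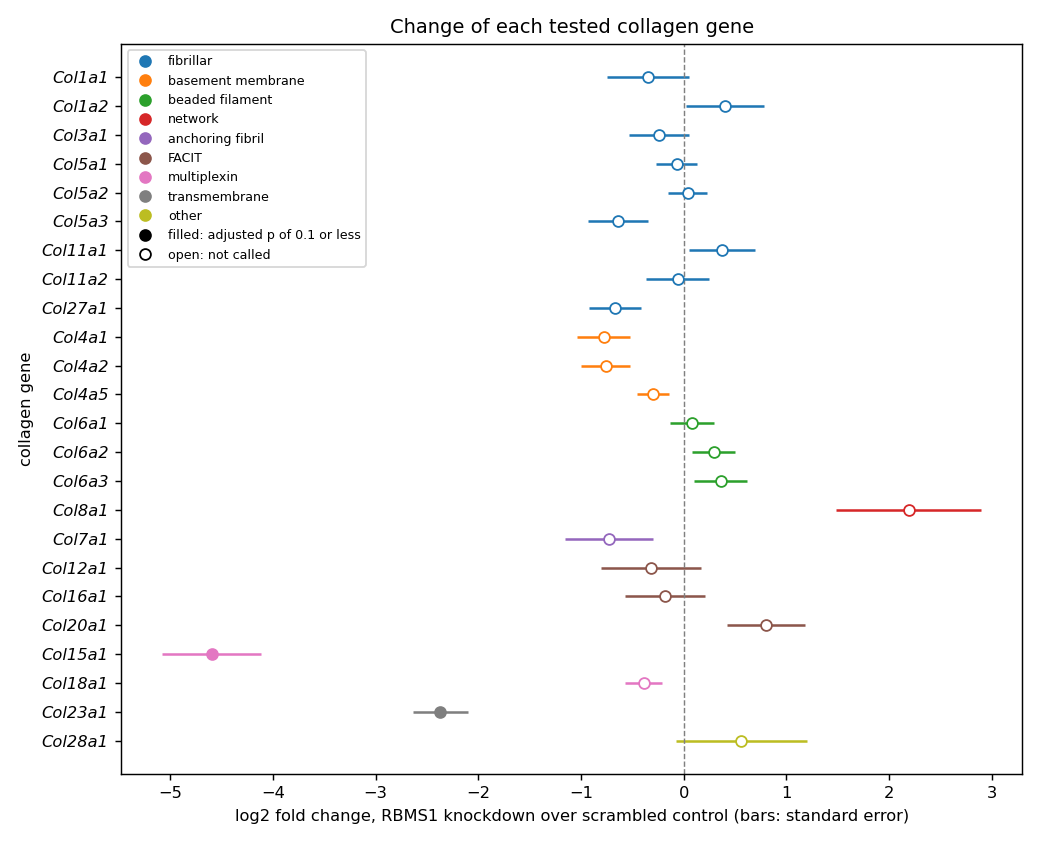
Log2 fold change (RBMS1 knockdown over scrambled control) of the 24 tested collagen genes, coloured by class, with bars of 1 standard error; filled points have an adjusted p of 0.1 or less. Col15a1 (-4.60) and Col23a1 (-2.37) are filled, and Col8a1 (2.19) is the farthest to the right with the widest bar.

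The 2 multiplexins differed in size of change. Col15a1, the core chain of a basement membrane zone proteoglycan, was at 342, 275 and 262 CPM in the controls and at 21.0, 11.0 and 4.55 CPM in the knockdown samples. Every knockdown sample lay more than 10-fold below the lowest control, and the knockdown values rest on 62 to 146 counts per library. The means of 293 ± 42.9 and 12.2 ± 8.28 CPM (SD, n = 3) were far apart, and the fitted log2 fold change of -4.60 (SE 0.48, adjusted p = 0.0116, edgeR) is a 24.3-fold lower level. Leaving out each sample in turn gave -5.24 to -4.19, and the adjusted p stayed at 0.0663 or below under all alternatives run. In the controls, Col15a1 stood at 46.2 ± 6.76 CPM per kilobase, above Col18a1, and in the knockdown samples at 1.92 ± 1.30.

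Col18a1, whose chain releases the fragment endostatin, was at 137, 104 and 87.4 CPM in the controls and at 79.6, 87.1 and 83.0 CPM in the knockdown samples. The groups touched without overlapping, and the log2 fold change of -0.39 (SE 0.18) did not pass the threshold (adjusted p = 0.416, edgeR). Per length, Col18a1 was at 15.6 ± 3.57 CPM per kilobase in the controls and 11.9 ± 0.531 in the knockdown samples, so that it took the place of Col15a1 as the higher multiplexin.

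Col15a1 lies on chromosome 4 from 47208161 to 47313167 (GRCm38, plus strand). Its 6 neighbours among tested genes, the same number from each side, had log2 fold changes of -0.22 to 3.01. None was called (adjusted p = 0.147 to 0.991, edgeR). Measured between the lower coordinates of the genes, they were 145 to 671 kb from Col15a1. The neighbour at 3.01 was Coro2a. Of the 6, 5 were above 0 and only Sec61b was below it.

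Col23a1, a type XXIII chain anchored in the plasma membrane, was the only transmembrane collagen with enough counts to test. It was at 13.8, 11.4 and 13.6 CPM in the controls and at 2.44, 2.22 and 2.79 CPM in the knockdown samples. Both groups were tight and lay far apart. The means of 12.9 ± 1.32 and 2.48 ± 0.286 CPM (SD, n = 3) went with a fitted log2 fold change of -2.37 (SE 0.27, adjusted p = 0.0125, edgeR), a 5.18-fold lower level. The values rest on 23 to 86 counts per control library and 17 to 38 per knockdown library. Leaving out each sample in turn gave -2.47 to -2.28. Col23a1 lies on chromosome 11 from 51289920 to 51583918 (plus strand). Its 6 tested neighbours, taken in the same way as for Col15a1, had log2 fold changes of -0.61 to 0.06, with none called.

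The promoters of the 2 called collagens are shown because both transcripts fell. Each is the 250 bases before the RefSeq start on GRCm38.p6, and RefSeq held a promoter for 35 of the 44 members. Searched on both strands were TATAAA (in 12.4% of all 32851 promoters of the same length), CCAAT (33.8%) and GGGCGG, the GC box (32.7%). Capitals mark a match, read as CCGCCC or ATTGG where it lies on the other strand.

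Col15a1 (chr4:47207762-47208011, plus strand): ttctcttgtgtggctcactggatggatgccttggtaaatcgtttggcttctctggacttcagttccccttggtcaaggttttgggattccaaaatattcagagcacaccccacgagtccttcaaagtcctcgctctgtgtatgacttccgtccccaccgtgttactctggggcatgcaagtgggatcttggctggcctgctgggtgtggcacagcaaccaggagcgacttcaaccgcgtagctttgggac

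Col23a1 (chr11:51289670-51289919, plus strand): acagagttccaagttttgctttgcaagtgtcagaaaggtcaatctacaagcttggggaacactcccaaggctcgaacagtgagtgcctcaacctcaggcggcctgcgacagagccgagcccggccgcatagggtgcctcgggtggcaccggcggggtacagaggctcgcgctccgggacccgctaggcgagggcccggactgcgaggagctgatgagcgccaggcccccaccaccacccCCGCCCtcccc

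The Col15a1 window was 53.6% GC and held none of the 3 motifs. The Col23a1 window was 66% GC and held 1 GC box near its 3′ end. As the Col15a1 window held none of the 3 motifs, no match could be shared, and a common promoter element was not tested.

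All 3 tested basement membrane chains were lower in mean level with RBMS1 knockdown, but edgeR called none of them. Col4a1, which with Col4a2 makes the common type IV trimer, was at 3013, 3850 and 3411 CPM in the controls and at 1577, 2126 and 2301 CPM in the knockdown samples. Its log2 fold change was -0.78 (SE 0.26, unadjusted p = 0.0146, adjusted p = 0.253, edgeR), and DESeq2 gave an adjusted p of 0.00879. Col4a2 was at 2045, 2352 and 2026 CPM against 946, 1371 and 1464 CPM. Its log2 fold change was -0.76 (SE 0.24, unadjusted p = 0.00987, adjusted p = 0.217, edgeR), and DESeq2 gave 0.0138. For both chains every knockdown sample was below every control, and the call depended on the tool.

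Col4a5, a chain of a more specialised type IV trimer encoded on the X chromosome, was at 127, 152 and 156 CPM in the controls and at 99.3, 129 and 123 CPM in the knockdown samples. The groups overlapped, with a log2 fold change of -0.30 (SE 0.16, adjusted p = 0.489, edgeR). Per length it stood far below its relatives, at 21.5 ± 2.33 CPM per kilobase in the controls. Col4a6 had 2 counts in all, Col4a3 had 1 and Col4a4 had none.

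The ratio of the Col4a1 and Col4a2 chains was alike in both groups. Per length, Col4a1 over Col4a2 was 1.31, 1.45 and 1.49 in the controls and 1.48, 1.37 and 1.39 in the knockdown samples, so the mean was 1.42 in both groups. The genes lie head to head on chromosome 8 (Col4a1 from 11198423 to 11312826 on the minus strand, Col4a2 from 11312805 to 11449287 on the plus strand), with RefSeq starts at 11312826 and 11312805, 21 bases apart. Their annotated 5′ ends therefore overlap, and whether strand was used in counting is not given in the sources used here. The 250 bases before each start are shown because they lie on both sides of this shared start.

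Col4a1 (chr8:11312827-11313076, minus strand): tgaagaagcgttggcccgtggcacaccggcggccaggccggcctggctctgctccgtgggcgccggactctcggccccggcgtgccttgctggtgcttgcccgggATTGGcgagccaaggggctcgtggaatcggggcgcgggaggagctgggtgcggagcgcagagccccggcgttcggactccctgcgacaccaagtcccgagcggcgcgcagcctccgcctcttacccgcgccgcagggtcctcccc

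Col4a2 (chr8:11312555-11312804, plus strand): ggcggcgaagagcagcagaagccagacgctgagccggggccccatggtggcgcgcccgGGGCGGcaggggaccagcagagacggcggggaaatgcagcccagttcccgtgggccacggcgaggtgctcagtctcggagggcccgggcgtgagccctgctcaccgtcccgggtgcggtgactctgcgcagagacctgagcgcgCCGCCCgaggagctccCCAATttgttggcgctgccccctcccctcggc

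The Col4a1 window held 1 CCAAT match at 74.4% GC, and the Col4a2 window held 1 CCAAT match and 2 GC boxes at 73.6% GC. Neither held TATAAA.

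The lower values of Col4a1 and Col4a2 stood among lower values of their chromosome. Across the 624 genes tested on chromosome 8, the log2 fold changes had their median at -0.38 with 90.1% below 0. For the 10816 other tested genes these values were 0.02 and 47.3%. Of the 11440 tested genes, 11402 had an annotated position, and those without one were counted among the 10816. On chromosome 8, 82 genes (13.1%) were at or below the value of Col4a1, against 4.10% elsewhere. With each chromosome's median removed (chromosome 3 split at 50 Mb), Col4a1 stood at -0.38 (adjusted p = 0.680) and Col4a2 at -0.37 (adjusted p = 0.667, edgeR). Col15a1 and Col23a1, on chromosomes 4 and 11, were called with or without that step. The same step moved other uncalled collagens as well, Col3a1 from -0.24 to -0.48 and Col1a2 from 0.40 to 0.22 among them. What part the chromosome has in the type IV values was not tested.

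**Figure D4:**
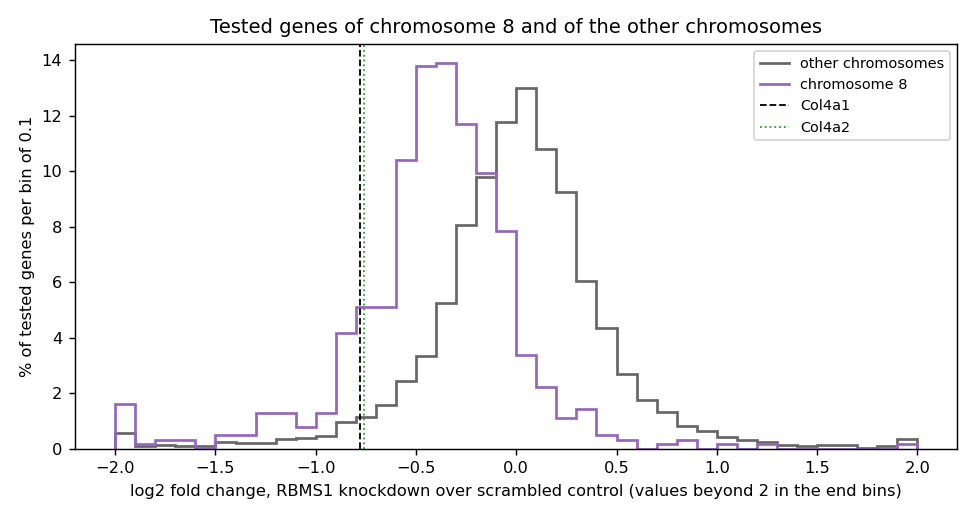
Share (%) of tested genes per bin of 0.1 in log2 fold change, with lines at Col4a1 and Col4a2. The curves are the 624 genes of chromosome 8 and the 10816 genes of other chromosomes or without an annotated position. The chromosome 8 curve is centred near -0.38 and the other near 0.02, and both lines fall in the left part of the chromosome 8 curve.

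None of the 9 tested fibrillar collagens was called by edgeR (beside 1.22% of all genes) or DESeq2 (beside 3.20% of the genes it adjusted). At an unadjusted p under 0.05 there was 1 (edgeR; 11.1%, beside 12.4% of all genes). The median log2 fold change of the 9 was -0.07 (0.10 without knockdown replicate 1). Of them, 6 were below 0 (66.7%, beside 49.6% of all genes). Col1a1, the chain present in 2 copies in the type I trimer, was at 3292, 2219 and 2023 CPM in the controls and at 875, 2380 and 2646 CPM in the knockdown samples. Its partner Col1a2 was at 3353, 2821 and 3039 CPM against 1927, 4680 and 5589 CPM. Knockdown replicate 1 was the lowest sample for both chains and the other knockdown samples were not. The log2 fold changes were -0.35 (SE 0.40, adjusted p = 0.774) for Col1a1 and 0.40 (SE 0.38, adjusted p = 0.726, edgeR) for Col1a2.

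Of the pairs read within samples, Col1a1 over Col1a2 and Col6a1 over Col6a2 separated the groups, and the others overlapped. Per length, Col1a1 over Col1a2 was 1.86, 1.49 and 1.26 in the controls and 0.860, 0.963 and 0.897 in the knockdown samples. The means were 1.54 ± 0.302 and 0.907 ± 0.0523 (SD, n = 3), a log2 difference of -0.74, and leaving out each sample in turn gave -0.88 to -0.60. The ratio itself depends on the lengths used, with means of 0.732 and 0.432 for the longest transcripts, and the log2 difference between groups does not. The ratio was lower in knockdown replicate 1, where both chains were low, as well as in replicates 2 and 3, where Col1a2 was high. With chromosome medians removed, Col1a1 stood at -0.27 and Col1a2 at 0.22 (-0.35 and 0.40 in the main fit, edgeR), so the chains lay closer together. The ratios, like the shares, are given without a test.

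**Figure D5:**
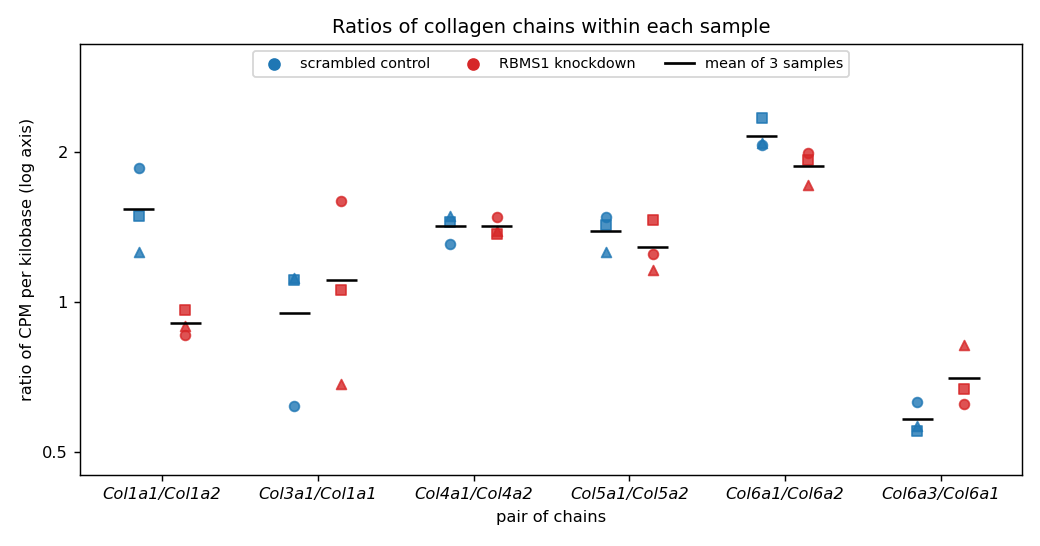
Ratio of collagen chains within each sample, per length (CPM per kilobase, log axis), for 6 pairs in 3 scrambled control (blue) and 3 RBMS1 knockdown (red) samples, with a line at the mean and the replicate shown by the marker's shape. Col1a1/Col1a2 and Col6a1/Col6a2 do not overlap between groups, whereas Col4a1/Col4a2 has the same mean (1.42) in both.

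The other fibrillar chains had smaller or less even differences. Col3a1, the type III chain that mixes with type I in soft tissue, was at 3046, 3672 and 3393 CPM in the controls and at 2090, 3788 and 2708 CPM in the knockdown samples (log2 fold change -0.24, SE 0.29, adjusted p = 0.795, edgeR). The type V chains, which nucleate fibrils, were near 0 for Col5a1 (842, 784 and 724 against 571, 880 and 786 CPM, log2 fold change -0.07) and Col5a2 (641, 617 and 649 against 517, 683 and 762 CPM, log2 fold change 0.04). Col5a3 was at 313, 337 and 161 CPM against 182, 215 and 123 CPM, and its groups overlapped (log2 fold change -0.64, SE 0.29, adjusted p = 0.409, edgeR). The type XI chains, relatives of type V best known from cartilage, had log2 fold changes of 0.37 (SE 0.32) for Col11a1 and -0.06 (SE 0.31) for Col11a2.

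Col27a1 was the only tested fibrillar chain whose groups did not overlap (11.1%, beside 18.5% of all genes). It was at 51.1, 47.6 and 44.0 CPM in the controls and at 20.0, 42.1 and 27.8 CPM in the knockdown samples, with no overlap. The log2 fold change of -0.67 (SE 0.25) had an unadjusted p of 0.0258 and did not pass the threshold (adjusted p = 0.315, edgeR).

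The 3 tested type VI chains had log2 fold changes above 0, and none was called by edgeR or DESeq2 or had an unadjusted p under 0.05. Col6a1 was at 1623, 1841 and 1466 CPM in the controls and at 1729, 1637 and 1839 CPM in the knockdown samples (log2 fold change 0.08, SE 0.21, adjusted p = 0.919, edgeR). Col6a2 was at 1492, 1497 and 1335 CPM against 1655, 1611 and 2026 CPM (0.29, SE 0.21, adjusted p = 0.618). Col6a3, the large chain whose cleaved end is the peptide endotrophin, was at 2795, 2764 and 2260 CPM against 2940, 2992 and 4120 CPM (0.36, SE 0.26, adjusted p = 0.628). For Col6a2 and Col6a3 the groups did not overlap, but by gaps smaller than the spread within the knockdown group. Col6a1 over Col6a2 per length was 2.07, 2.34 and 2.09 in the controls and 1.99, 1.93 and 1.72 in the knockdown samples, without overlap, whereas Col6a3 over Col6a1 overlapped (0.550 to 0.631 against 0.623 to 0.820). With chromosome medians removed, Col6a3 on chromosome 1 stood at 0.12 and the median of the 3 chains went from 0.29 to 0.12. Summed over the type VI chains, the level was 5062 to 6103 CPM in the controls and 6240 to 7985 CPM in the knockdown samples.

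Col8a1, a short-chain network collagen, had the highest log2 fold change of the family and the least even samples. It was at 7.53, 0.496 and 2.24 CPM in the controls and at 5.46, 21.2 and 25.4 CPM in the knockdown samples, or 47, 1 and 13 counts against 38, 181 and 346. Knockdown replicate 1 lay below control replicate 1, so the groups overlapped. The log2 fold change of 2.19 (SE 0.71) had an unadjusted p of 0.0121 and was not called (adjusted p = 0.231, edgeR). Without knockdown replicate 1 it was 2.62 and called (adjusted p = 0.0425), so that 1 library decided the call. Without control replicate 1 it was 3.42 and not called (adjusted p = 0.202), and over all 6 samples left out in turn it ranged from 1.82 to 3.42. With library sizes alone, where the median of all genes moved to 0.373, it was 2.10 above that median and called (adjusted p = 0.0948). Its partner chain Col8a2 had 3 counts in all.

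None of the 5 remaining tested members was called. Col7a1, the anchoring fibril collagen, was at 9.30, 33.7 and 14.1 CPM in the controls and at 10.8, 14.1 and 8.59 CPM in the knockdown samples (log2 fold change -0.73, SE 0.43, adjusted p = 0.531, edgeR), with control replicate 2 far above the rest. Without that sample the log2 fold change was -0.07. Among FACITs, which decorate fibrils, Col12a1 was at 235, 130 and 160 CPM against 40.1, 150 and 229 CPM (-0.32, SE 0.49, adjusted p = 0.841) and Col16a1 at 43.8, 45.2 and 40.8 CPM against 13.8, 53.3 and 46.8 CPM (-0.18, SE 0.39). Both had their lowest value in knockdown replicate 1. Col20a1 was at 9.14, 22.3 and 10.3 CPM against 20.0, 34.0 and 16.4 CPM (0.80, SE 0.38, adjusted p = 0.438). Col28a1, a von Willebrand factor A domain collagen, was at 3.37, 3.47 and 3.27 CPM against 0.863, 5.38 and 8.30 CPM (0.56, SE 0.64, adjusted p = 0.774). For all 5 the groups overlapped.

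The other 20 members had too few counts for the filter of the edgeR test. No count was seen for Col4a4, Col9a1, Col9a2, Col13a1, Col19a1 and Col25a1 in any of the 6 samples, where 3 counts correspond to at most 0.220 to 1.49 CPM. The cartilage FACIT chain Col9a3 had 43 counts in all, the hemidesmosome collagen Col17a1 had 24, the growth plate collagen Col10a1 had 18 and Col14a1 had 16. Col2a1, the main cartilage collagen, had 2 counts, as had Col6a6, while Col6a4 had 3 and Col6a5, Col22a1, Col24a1 and Col26a1 had 1 each. DESeq2, which filters otherwise, gave an adjusted p for Col10a1 (0.794), Col9a3 (0.798) and Col17a1 (0.989) and called none of these 3.

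Genes that make, move, process, bind or cut collagen were read from 5 lists. Of 18 tested modification and folding genes, 1 was called (5.56%, beside 1.22% of all genes), DESeq2 called 2 (beside its 3.20% of all genes), 4 (22.2%, beside 12.4% of all genes) were at an unadjusted p under 0.05, 7 were below 0 and 11 above, and the median log2 fold change was 0.03. The called gene was P3h3, a prolyl 3-hydroxylase family member, at 14.9, 10.4 and 17.7 CPM in the controls and 0.863, 2.69 and 1.61 CPM in the knockdown samples. Its log2 fold change was -3.05 (SE 0.41, adjusted p = 0.0226, edgeR), and it was not called without control replicate 1 (adjusted p = 0.104) or without control replicate 3 (adjusted p = 0.107). Of its relatives, P3h2 was too low to test, at 1.28, 1.49 and 1.20 CPM in the controls and 0 in all 3 knockdown samples, and P3h4 was at 0.29 (adjusted p = 0.574). P3h1 (0.01) and Crtap (-0.10), a scaffold of prolyl 3-hydroxylation, were near 0, as were the collagen chaperone Serpinh1 (0.11), the prolyl 4-hydroxylase chains P4ha1 (-0.13) and P4ha2 (0.03) and the lysyl hydroxylase Plod1 (-0.03). The lysyl hydroxylase Plod2 (0.58, adjusted p = 0.303) and the galactosyltransferase Colgalt1 (-0.52, adjusted p = 0.260) did not overlap between groups but were not called. Groups did not overlap for 16.7% of the 18 genes, beside 18.5% of all genes.

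None of 11 tested secretion genes, 10 processing and cross-linking genes, 9 receptors or 4 collagenases was called (edgeR), beside 1.22% of all genes. At an unadjusted p under 0.05 there were 0, 1, 5 (55.6% of the receptors) and 1 of them, beside 12.4% of all genes. DESeq2 called 0, 0, 0 and 1, beside 3.20% of the genes it adjusted. Their median log2 fold changes were 0.02, -0.21, -0.03 and -0.31. Among processing genes, peroxidasin (Pxdn), which cross-links type IV collagen, was at 173, 158 and 222 CPM in the controls and at 119, 132 and 135 CPM in the knockdown samples (-0.52, adjusted p = 0.231). Lysyl oxidase (Lox) was at 619, 472 and 567 CPM against 252, 651 and 476 CPM (-0.27). Among receptors, the collagen-binding integrin chain Itga11 was at -0.92 (adjusted p = 0.221), Itga1 at -0.54 and Itgb1 at -0.37 (adjusted p = 0.386, edgeR). The discoidin domain receptors Ddr1 and Ddr2 were at 0.51 and 0.54 (adjusted p = 0.362 and 0.391, edgeR). The collagenase Mmp13 was low, at 2.40, 0.993 and 1.72 CPM against 6.18, 7.48 and 4.33 CPM (1.69, adjusted p = 0.129).

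Markers of the adipocyte and of its precursor were read beside the collagens. Of the 10 adipocyte markers 9 were below 0, with a median log2 fold change of -0.42, and resistin (Retn) was called (240, 311 and 204 CPM against 134, 54.7 and 48.7 CPM, log2 fold change -1.67, SE 0.36, adjusted p = 0.0967, edgeR). That call was lost under 12 of 18 alternatives. DESeq2 called 3 of the 10, beside 3.20% of all genes (1.22% with edgeR), and 3 were at an unadjusted p under 0.05 (edgeR; 30.0%, beside 12.4% of all genes). The groups did not overlap for 3 that were lower, namely Retn, Lpl (-0.87, adjusted p = 0.446) and Cebpa (-0.61, adjusted p = 0.319), and for 1 that was higher (40.0% together, beside 18.5% of all genes). The latter was the fatty acid transporter Cd36 (0.72, adjusted p = 0.183, edgeR). Of 9 tested preadipocyte or fibroblast markers 5 were below 0 and none was called (edgeR), whereas DESeq2 called 1 (beside 3.20% of all genes). At an unadjusted p under 0.05 there were 2 (edgeR; 22.2%, beside 12.4% of all genes), Pdgfra and Dlk1, which were lower without overlap. The log2 fold changes of the 9 were -0.87 for Pdgfra (adjusted p = 0.155), -0.84 for Dlk1, -0.08 for S100a4, -0.07 for Vim and for Thy1, 0.10 for Ly6a, 0.12 for Pdgfrb and 0.52 for Acta2 and for Fn1. The summed preadipocyte or fibroblast markers were at 4102 to 5327 CPM in the controls and 3382 to 6443 CPM in the knockdown samples. Summed macrophage markers were at 1.20 to 2.48 against 2.06 to 3.27 CPM, endothelial at 0.172 to 1.99 against 0.587 to 1.44 CPM, epithelial at 0.496 to 0.688 against 0.514 to 5.32 CPM and chondrocyte at 32.5 to 40.4 against 19.0 to 39.7 CPM. The part of cell state in the collagen values was not tested.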

How the data were processed

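Total RNA of 3 scrambled control and 3 RBMS1 knockdown 3T3-L1 samples was sequenced after a stranded library preparation. The authors deposited a table of each gene's estimated counts, not normalized, and the submitters' processing notes name Trim Galore 0.6.7, STAR 2.7.10a, Salmon 1.9.0 and GRCm38. The annotation release is not given in the sources used here. Of the values, 3.97 to 7.78% per sample were not whole, and all were rounded.

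Genes were filtered with filterByExpr, TMM-scaled and tested with edgeR 4.0.16 (glmQLFit and glmQLFTest, condition only, R 4.3.3), with Benjamini-Hochberg adjustment over 11440 genes. The SE is the log2 fold change divided by the square root of F. DESeq2 1.42.0, limma-voom 3.58.1 and further settings were alternatives. The script was tested on simulated data. Levels used exon lengths of GENCODE M21.

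Groups came from the sample titles. Replicates correlated by -0.14, 0.08 and -0.03 across groups with the same number, so numbers were not taken as pairs. No replicate pair agreed within sampling noise (chi-square per degree of freedom 38.5 to 181). The members and lists were chosen with earlier results of these data known. Named by rule with values in every sample were called collagens, the highest in each class, partner chains, collagens called by DESeq2 alone or at an unadjusted p under 0.05, called list genes and Rbms1. Some genes outside that rule are given in the same way, such as Col16a1, Col20a1, Lox, Pxdn, Mmp13 and P3h2.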

Additional observations from a re-analysis of the deposited data

How the results depend on the processing

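The fall of Col15a1 (-5.24 to -4.19) and that of Col23a1 (-2.47 to -2.28, adjusted p at most 0.0701, with the replicate block) were called under all 18 alternatives. Counts moved more. Over all genes, 104 were lower and 36 higher; the counts were 285 and 145 with DESeq2, 42 and 84 with library sizes alone, 180 and 88 with no filter, 33 and 6 with the replicate block, and 54 and 17 with chromosome medians removed, and limma-voom gave 19 higher. Leaving out 1 sample gave 12 to 426 lower and 0 to 270 higher. DESeq2 called 4 collagens lower, also under 0.05. Collagens called higher were 1 with library sizes alone and 0 to 1 on leaving out 1 sample (Col8a1). Collagens under 0.05 were 1 with the replicate block and 0 to 3 on leaving out 1 sample, with 0 without control replicate 2, control replicate 3 or knockdown replicate 2. Called collagen pathway genes were 3 with DESeq2, 2 with library sizes alone, 2 with no filter and 0 to 4 on leaving out 1 sample. The replicate block was made although the numbers were not taken as pairs. The median of the collagens ranged from -0.39 to 0.09 on leaving out 1 sample and Col1a1/Col1a2 from -0.88 to -0.60. The summed control level of 2841 CPM per kilobase was 3787 with the longest transcript and 2509 with library sizes alone. None of the called genes named changed sign. Without knockdown replicate 1 the medians of the collagens (0.09), fibrillar chains (0.10) and FACITs (0.22) and the log2 difference of Col3a1/Col1a1 (-0.10; -0.08 without control replicate 1) did, as did uncalled genes. On leaving out 1 sample, Col1a1 ranged from -0.62 to 0.01, Col11a2 from -0.50 to 0.20, Col5a2 from -0.08 to 0.19, Col5a1 from -0.19 to 0.10, Col11a1 from -0.13 to 0.65, Col12a1 from -0.88 to 0.12, Col16a1 from -0.49 to 0.22 and Col28a1 from -0.08 to 1.04. With chromosome medians removed, Col11a2 was 0.00 and Col5a2 -0.20. The causes were not tested. The earlier and robust quasi-likelihood estimates and the longest transcript as the length of shares and ratios were chosen after seeing the data.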
